A study of Mus musculus with 8 samples.

Results

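Mitochondrial ribosomal proteins are the nuclear-encoded proteins of the ribosome inside mitochondria, and their transcripts were compared between RAW264.7 cells given a Ypel5 siRNA and cells given a scrambled siRNA. The members were all gene names of the deposited intensity table that start with Mrpl or Mrps followed by a number, which gave 72 of 18136 names, 44 Mrpl and 28 Mrps. Each gene was read by its probe with the highest mean intensity. Of the 72 members, 68 (41 Mrpl and 27 Mrps) were detected on at least 4 of the 8 arrays and were tested, each of them detected on all 8 arrays.

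The mitochondrial ribosome translates the few messenger RNAs of the mitochondrial genome, which encode core subunits of the respiratory chain and ATP synthase. Its proteins are made in the cytosol and imported. Mrpl names denote proteins assigned to the large subunit, which joins amino acids and holds the exit tunnel, and Mrps names those assigned to the small subunit, which binds the messenger RNA and decodes it. Many of the proteins have a counterpart in bacterial ribosomes, and others occur only in mitochondria. In human structures the proteins named MRPS30 and MRPS18A lie in the large subunit despite their names.

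RAW264.7 is a macrophage line from the BALB/c strain. One group of 4 arrays held RNA of cells transfected with the Ypel5-specific siRNA SASI_Mm01_00066332, and the other group of 4 held RNA of cells transfected with the scrambled MISSION siRNA SIC001, both with HiPerfect and both 24 h before. The Ypel5 group thus rests on a single siRNA in a single cell line. The labels do not say that replicates came from separate cultures, and the source names repeat a replicate number within each group. They differ in this from the numbers in the descriptions, which name the arrays here. The number of independent replicates in each group is thus not known. The spread that p-values rest on is that between these arrays and may be technical. In such bulk RNA, fewer cells of a kind and less RNA per cell cannot be told apart.

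Between 11249 and 11612 of 25697 probes were detected per array. The median intensity was 209.5 ± 14.6 in the Ypel5 siRNA group and 189.2 ± 6.26 in the scrambled group (SD, 4 arrays in each group). An exact two-sided permutation test gave p = 0.0857, and no split of 8 arrays can give less than 0.0286. Of 8 macrophage markers 7 were detected on all arrays, Itgam on 1, and 0 of 10 measured markers of T cells, B cells, fibroblasts and epithelium reached 4 arrays. The single Ypel5 probe was detected on 0 of 8 arrays, with normalized log2 readings of 4.84, 4.68, 4.72 and 4.90 on the Ypel5 siRNA arrays and 4.61, 4.82, 4.65 and 4.72 on the scrambled arrays, so a fall of its mRNA could not have been seen here.

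The transcripts of the 68 members moved little. Relative to scrambled siRNA, 1 was higher (Mrpl17) and 1 lower (Mrps21) after the Ypel5 siRNA, and 66 did not pass a limma adjusted p of 0.05. These 2 calls are 2.94% of the members, where 4.83% of all 8257 genes tested passed, 2.88% higher and 1.95% lower. With only a common median per array in place of quantile normalization, 228 genes passed, of which 87.3% were higher, against 399 and 59.6%, and 0 members passed. Without background correction 8.25% of all genes and 8.82% of the members passed, and with an intensity trend in the variance 9.2% of all genes and 11.8% of the members. All changes are log2 intensity of the Ypel5 siRNA group minus that of the scrambled group, after background correction with an offset of 16, which understates the change of dim probes. The median change was log2 -0.013 for Mrpl and log2 -0.013 for Mrps members, against log2 0.0010 for all genes tested. Changes ran from log2 -0.27 (Mrps21) to log2 0.31 (Mrpl17). The 95% interval of a member's change had a median half-width of log2 0.13, and over the 68 members the intervals reached from log2 -0.47 (Mrpl45, 1.39-fold lower) to log2 0.44 (Mrpl51, 1.35-fold higher).

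**Figure D1:**
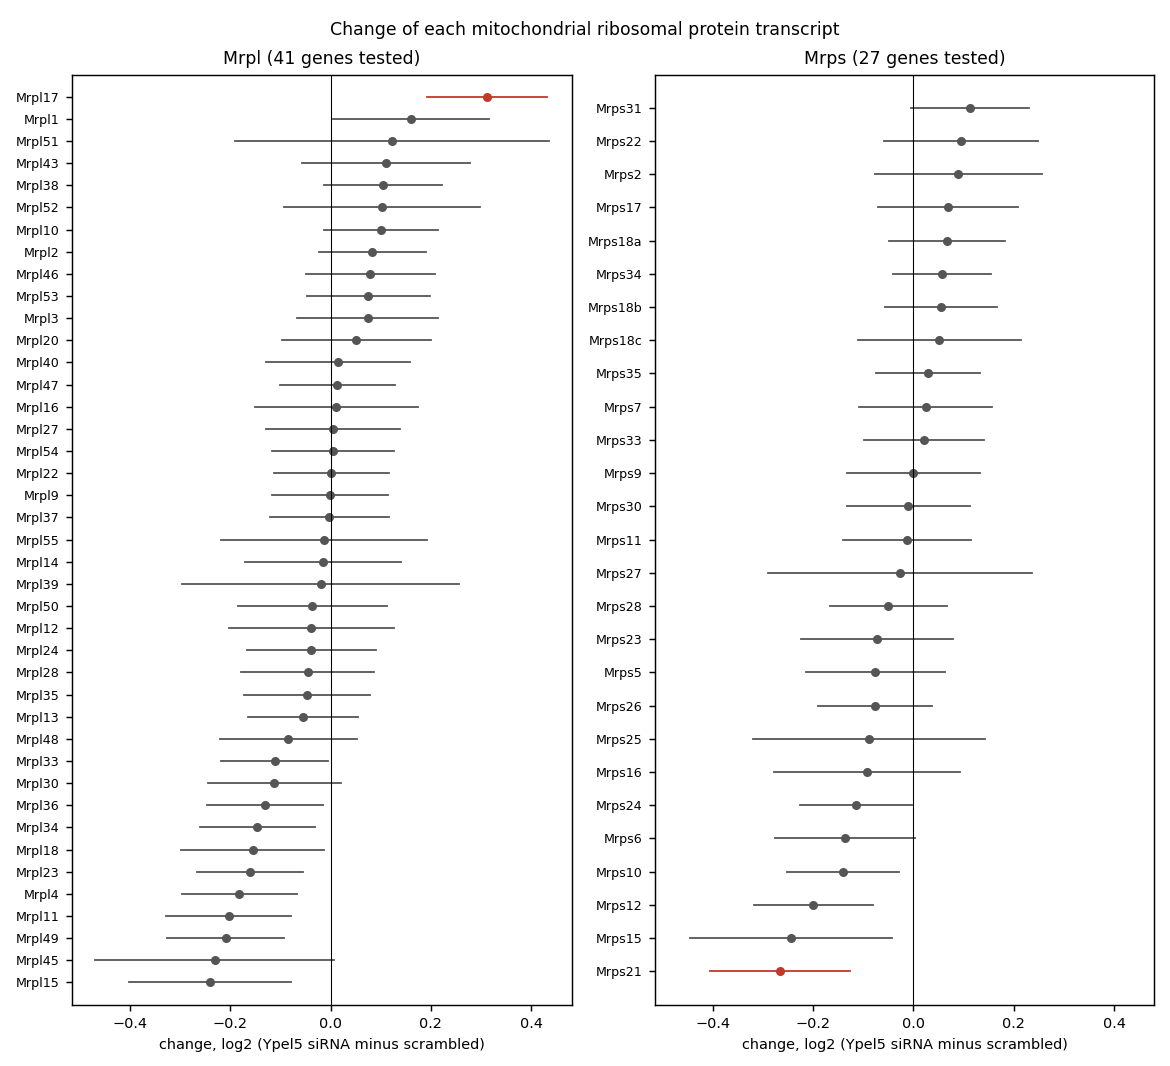
Change of each of the 68 members (x axis, log2 of Ypel5 siRNA minus scrambled; points with 95% intervals from the limma fit; n = 4 arrays each), with 41 Mrpl genes on the left and 27 Mrps genes on the right, ordered by change. The genes in red, Mrpl17 at log2 0.31 and Mrps21 at log2 -0.27, passed an adjusted p of 0.05.

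The promoter windows of the 4 members with the smallest p are printed here, because they include both called genes and can be set against the promoters of the other members. Each window covers 250 bases before to 50 bases after the gene's start in RefSeq (GRCm38.p6), 5′ to 3′ on the strand of the gene, which is the minus strand for all 4. Capitals mark matches to CCGGAA, the core that factors of the ETS family bind, on either strand. The windows lie at chr7:105811038-105811337 (Mrpl17), chr3:95871465-95871764 (Mrps21), chr19:6057706-6058005 (Mrpl49) and chr7:28741772-28742071 (Mrps12).
Mrpl17: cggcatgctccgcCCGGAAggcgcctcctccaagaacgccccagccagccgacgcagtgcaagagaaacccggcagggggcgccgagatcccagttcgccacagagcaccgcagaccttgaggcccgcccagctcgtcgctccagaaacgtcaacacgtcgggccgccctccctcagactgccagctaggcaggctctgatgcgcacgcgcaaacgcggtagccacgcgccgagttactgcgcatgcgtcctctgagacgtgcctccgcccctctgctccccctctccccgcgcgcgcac
Mrps21: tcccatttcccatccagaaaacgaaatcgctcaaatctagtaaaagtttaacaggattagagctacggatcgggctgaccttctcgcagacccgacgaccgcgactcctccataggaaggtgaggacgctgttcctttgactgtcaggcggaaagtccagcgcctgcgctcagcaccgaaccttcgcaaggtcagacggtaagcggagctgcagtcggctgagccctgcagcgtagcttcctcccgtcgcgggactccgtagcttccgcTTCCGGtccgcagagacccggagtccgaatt
Mrpl49: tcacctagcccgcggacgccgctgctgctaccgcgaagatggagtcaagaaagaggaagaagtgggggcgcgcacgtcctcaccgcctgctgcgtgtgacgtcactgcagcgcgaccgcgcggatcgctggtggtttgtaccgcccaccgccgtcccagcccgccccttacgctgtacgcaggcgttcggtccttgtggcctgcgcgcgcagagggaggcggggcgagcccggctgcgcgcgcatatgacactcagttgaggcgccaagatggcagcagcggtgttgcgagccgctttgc
Mrps12: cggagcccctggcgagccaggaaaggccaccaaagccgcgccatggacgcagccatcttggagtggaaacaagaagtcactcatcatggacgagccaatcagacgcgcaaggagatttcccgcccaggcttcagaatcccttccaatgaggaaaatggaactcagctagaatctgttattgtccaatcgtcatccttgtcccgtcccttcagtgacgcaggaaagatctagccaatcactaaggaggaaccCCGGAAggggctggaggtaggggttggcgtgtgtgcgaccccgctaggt
The windows of Mrpl17, Mrps21 and Mrps12 hold 1 match each and that of Mrpl49 holds 0. Mrpl17, which was higher, and Mrps21, which was lower, thus both carry the core.

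Promoter windows were found by symbol for 60 of the 68 members and for 5338 of the 8257 genes tested. The ETS core was present in 34 of 60 members (56.7%), against 34.1% of the genes tested and 16.7% of all 27025 genes of the table. The palindromic core bound by NRF1, a regulator of nuclear genes for mitochondria, was searched only as an exact palindrome. This exact form was present in 2 members (3.33%), against 2.36% of the genes tested. Sequences that differ from it at any base were not counted, so these shares do not show how often other forms of the NRF1 site occur. Another gene started on the opposite strand within 1000 bases upstream for 22 members (36.7%), against 20.4% of the genes tested. Members with the ETS core had a median change of log2 0.0028, with 6 lower and 2 higher at an unadjusted p under 0.05, where 10.5% of all genes tested were lower and 10.9% higher. The 26 members without it had a median of log2 -0.027, with 6 lower and 0 higher. A match describes these letters in this window and is no measured binding site.

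Mrpl17, a large-subunit protein with a bacterial counterpart, was the only member that passed as higher when each gene was read by its brightest probe. Its normalized log2 intensities were 13.70, 13.78, 13.85 and 13.81 on the Ypel5 siRNA arrays, against 13.47, 13.55, 13.42 and 13.46 on the scrambled arrays. All 4 Ypel5 siRNA arrays lay above all 4 scrambled arrays. The means were 13.79 ± 0.064 and 13.48 ± 0.054 in the Ypel5 siRNA and the scrambled group (SD, n = 4 each). The difference was 1.24-fold upward, at log2 0.31 with an SE of 0.052 and a limma adjusted p of 0.0159. The intensities before normalization did not overlap either, at 15636, 14258, 13745 and 15060 in the Ypel5 siRNA group and 11411, 12100, 9872 and 11075 in the scrambled group, where the median intensity of the arrays was also higher in the Ypel5 siRNA group. The call held without any single array (adjusted p of at most 0.0498), and its adjusted p was 0.0750 without both arrays numbered 1.

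Mrps21, a small-subunit protein with a bacterial counterpart, was the only member that passed as lower by the same reading. It read 12.04, 12.27, 12.07 and 12.07 on the Ypel5 siRNA arrays and 12.44, 12.32, 12.38 and 12.38 on the scrambled arrays. The groups did not overlap, and Ypel5 siRNA replicate 2 lay close to the lowest scrambled array. The difference of log2 -0.27 (SE 0.061, limma adjusted p = 0.0474) is a 1.20-fold decrease. Before normalization the groups overlapped, at 5268, 5169, 4177 and 4819 in the Ypel5 siRNA group and 5554, 5135, 4824 and 5276 in the scrambled group. The call was kept without Ypel5 siRNA replicate 2 (adjusted p = 0.0276) and lost without any other single array, with adjusted p of up to 0.110.

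**Figure D2:**
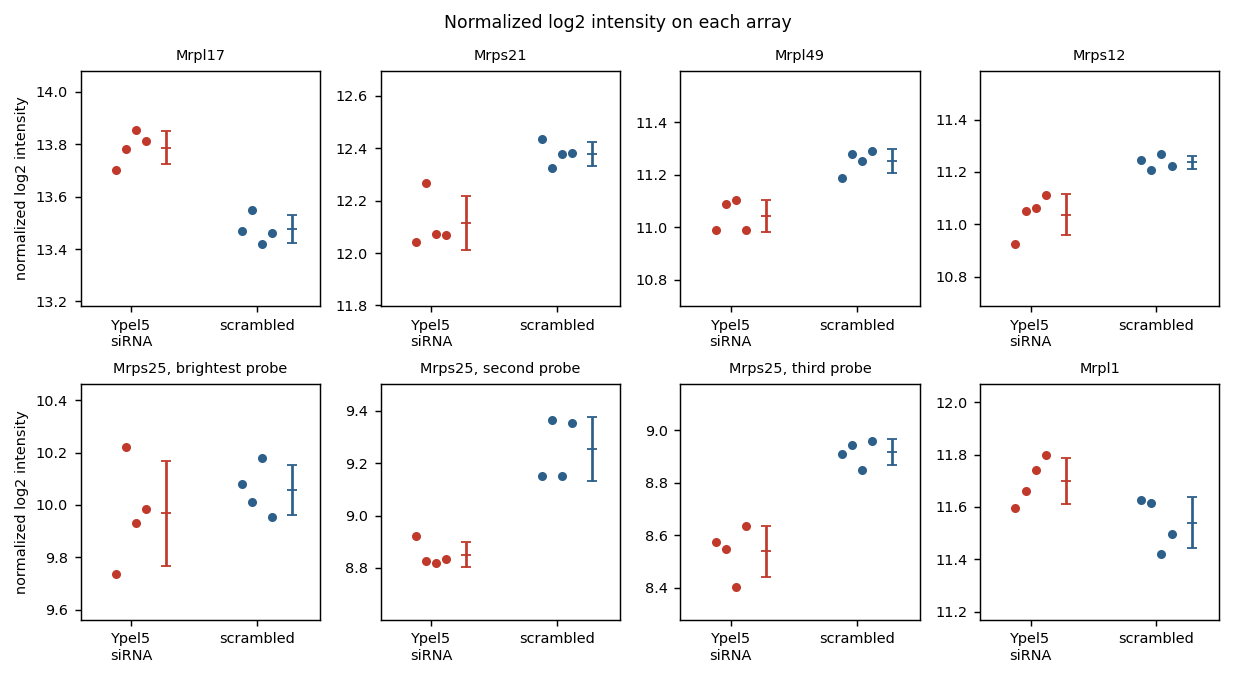
Normalized log2 intensity (y axis, each panel spanning the same range) on the 4 Ypel5 siRNA arrays (red, left) and the 4 scrambled arrays (blue, right) for 6 genes, with mean and SD beside the points. The groups do not overlap for Mrpl17, Mrps21, Mrpl49, Mrps12 and the dimmer Mrps25 probes, and they overlap for the brightest Mrps25 probe and for Mrpl1.

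Among the other Mrpl members, those with the smallest p had lower means after the Ypel5 siRNA but did not pass. Mrpl49, which occurs only in mitochondria, had log2 intensities of 10.99, 11.09, 11.10 and 10.99 in the Ypel5 siRNA group and 11.19, 11.28, 11.25 and 11.29 in the scrambled group (log2 -0.21, SE 0.051, limma adjusted p = 0.0549). Mrpl11, whose bacterial counterpart forms the base of the stalk that binds translation factors, had 10.58, 10.73, 10.67 and 10.57 in the Ypel5 siRNA group and 10.84, 10.90, 10.85 and 10.78 in the scrambled group (log2 -0.20, adjusted p = 0.0741). Mrpl4, whose bacterial counterpart lines the exit tunnel, had 11.32, 11.29, 11.29 and 11.39 in the Ypel5 siRNA group and 11.43, 11.59, 11.51 and 11.49 in the scrambled group (log2 -0.18, adjusted p = 0.0824). In all of these genes every Ypel5 siRNA array lay below every scrambled array. The same held for Mrpl23, at the exit of the tunnel (log2 -0.16, adjusted p = 0.0902), Mrpl15 (log2 -0.24, adjusted p = 0.0967), Mrpl34 (log2 -0.15), Mrpl36 (log2 -0.13) and Mrpl33 (log2 -0.11). Mrpl33 was named after its values were seen.

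Mrpl18, which binds ribosomal RNA in bacteria, was at log2 -0.16 (adjusted p = 0.197) with overlapping groups. Mrpl1 was the other Mrpl gene above 0 at an unadjusted p under 0.05, at log2 0.16 (adjusted p = 0.223). It read 11.60, 11.66, 11.74 and 11.80 in the Ypel5 siRNA group and 11.63, 11.61, 11.42 and 11.50 in the scrambled group, which overlap.

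Among the other Mrps members, Mrps12, whose bacterial counterpart sits at the decoding site, had 10.92, 11.05, 11.06 and 11.11 in the Ypel5 siRNA group and 11.25, 11.21, 11.27 and 11.22 in the scrambled group (log2 -0.20, SE 0.052, limma adjusted p = 0.0691). Its groups did not overlap. Mrps10, a protein of the head of the small subunit in bacteria (log2 -0.14, adjusted p = 0.147), and Mrps24, the counterpart of a bacterial protein at the entry of the messenger RNA channel (log2 -0.11, adjusted p = 0.223), did not overlap between groups either. Mrps15 was at log2 -0.24 (adjusted p = 0.157) and Mrps6 at log2 -0.14 (adjusted p = 0.242), with overlapping groups. Of the small-subunit proteins found only in mitochondria, 0 of 10 had an unadjusted p under 0.05 by the brightest probe. Mrps31 was at log2 0.11 (adjusted p = 0.251) and Mrps26 at log2 -0.08 (adjusted p = 0.436). Dimmer probes of Mrps25 (log2 -0.40 and -0.38) and Mrps26 (log2 -0.21) had unadjusted limma p of 0.00031, 0.00025 and 0.0029. No other detected probe of these proteins was under 0.05. Mrps7 was at log2 0.024 and Mrps33 at log2 0.021 (adjusted p = 0.856 and 0.862).

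The Mrps18 paralogs all lay slightly above 0. Mrps18c, the form closest to the bacterial protein, was at log2 0.052 (95% interval -0.11 to 0.21). Mrps18b, a small-subunit form, was at log2 0.056 (-0.056 to 0.17), and Mrps18a, the form found in the large subunit, at log2 0.067 (-0.049 to 0.18). None of the 3 passed (limma adjusted p of 0.731, 0.575 and 0.508). Mrps30 was at log2 -0.0098 (interval -0.13 to 0.11, adjusted p = 0.949). With Mrps30 and Mrps18a counted in the large subunit, the median was log2 -0.0098 for the large and log2 -0.027 for the small subunit.

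The rule for naming genes left out 43 tested members. The 30 Mrpl genes among them ran from log2 -0.23 (Mrpl45) to log2 0.11 (Mrpl43), with 15 below 0. The 13 Mrps genes ran from log2 -0.092 (Mrps16) to log2 0.095 (Mrps22), with 8 below 0. The groups did not overlap for 1 of the 43, Mrpl33, which also had the lowest limma adjusted p among them, 0.212. Mrpl45, which occurs only in mitochondria, had means of 7.20 ± 0.20 in the Ypel5 siRNA group and 7.43 ± 0.11 in the scrambled group (SD, n = 4 each, limma adjusted p = 0.246), with Ypel5 siRNA replicate 1 inside the scrambled range.

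Mrpl and Mrps members were set side by side by their counts. At an unadjusted p under 0.05, 9 Mrpl genes were lower and 2 higher of 41, and 5 Mrps genes were lower and 0 higher of 27. These can be read against the 10.5% lower and 10.9% higher of all genes tested. The groups did not overlap for 13 of the 68 members (19.1%), with 12 lower and 1 higher. Of all genes tested, 15.2% did not overlap, made up of 7.32% of all genes lower and 7.88% of all genes higher. Below 0 lay 23 of 41 Mrpl and 16 of 27 Mrps genes, 57.4% in all, where 49.7% of the genes tested did. Taken array by array, the median deviation of the Mrpl genes from their own means ran from log2 -0.026 to 0.0015 on Ypel5 siRNA arrays and from log2 0.0025 to 0.032 on scrambled arrays. For Mrps genes the ranges were log2 -0.029 to -0.00069 on Ypel5 siRNA arrays and log2 -0.013 to 0.022 on scrambled arrays, which overlap. The medians of Mrpl and Mrps changes differed by less than 0.001, where the difference between these sets varied between arrays of a group with an SD of 0.016.

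The members with a bacterial counterpart and those found only in mitochondria had different counts. Their class medians were followed after the data had been seen. The class called found only in mitochondria includes Mrps18a and Mrps18b, although they are paralogs of Mrps18c, which was placed with the bacterial counterparts. Of 42 tested members with a bacterial counterpart, 28 lay below 0 and the median change was log2 -0.042, with 13 lower and 2 higher at an unadjusted p under 0.05. Of 26 members found only in mitochondria, 11 lay below 0 and the median was log2 0.018, with 1 lower (Mrpl49) and 0 higher. Among all genes tested 49.7% lay below 0, and 10.5% were lower and 10.9% higher at that p. Both calls past the adjusted threshold were in the first class, 2 of 42 (4.76%), a share near that of all genes. The pattern held in each subunit, at medians of log2 -0.038 and -0.076 for large- and small-subunit members with a bacterial counterpart and log2 0.0096 and 0.025 for those without. By array, the median deviation of the class with a bacterial counterpart ran from log2 -0.030 to -0.0099 on the 4 Ypel5 siRNA arrays. On the 4 scrambled arrays it ran from log2 0.011 to 0.058, while the other class overlapped between groups. Each deviation is from the gene's mean over both groups, so the opposite signs follow largely from the class's median change. These values show how that change was spread over the arrays and are no separate support for it. With a common median per array 5 members with a bacterial counterpart were lower at an unadjusted p under 0.05, where 5.18% of all genes were. With the mean of the probes, 11 with a counterpart and 3 found only in mitochondria were lower, where 10.9% of all genes were. The difference between the classes was not tested. Between arrays of a group, the class median varied with an SD of log2 0.016 for members with a bacterial counterpart and log2 0.020 for those found only in mitochondria. The ETS core was present in 17 of 38 members with a bacterial counterpart (44.7%) and in 17 of 22 members without (77.3%).

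**Figure D3:**
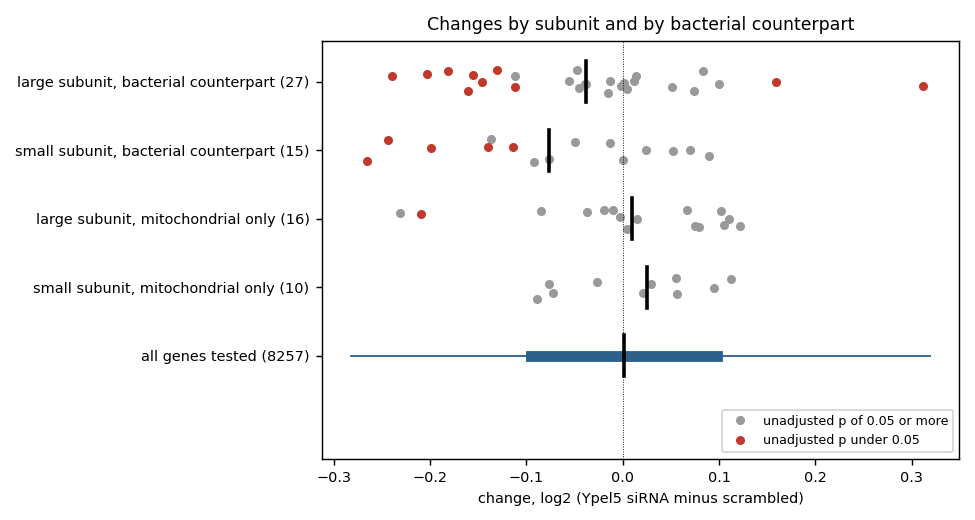
Change of each member (x axis, log2 of Ypel5 siRNA minus scrambled; points, with vertical position jittered) by subunit and bacterial counterpart, black bars marking medians. Below them, all 8257 genes tested are drawn as the median, the quartiles (thick bar) and the 5th to 95th percentile (thin line). Points in red, at an unadjusted p under 0.05, lie mostly in the classes with a bacterial counterpart, whose medians are log2 -0.038 and -0.076.

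Several probes of one gene gave a second reading for 20 members. Their detected probes differed in sign for 7 genes, Mrpl1, Mrpl18, Mrpl51, Mrps7, Mrps18b, Mrps31 and Mrps33, and in 0 of these did a probe opposite to the brightest have an unadjusted p under 0.05. The median range between probes of a gene was log2 0.083. Mrpl49 kept its sign in all 4 probes, between log2 -0.37 and -0.057. Mrpl18 had probes at log2 -0.16 and 0.23, the range of which was the widest of any member. The other probe of Mrps26 was at log2 -0.21 (limma adjusted p = 0.0633 over all detected probes), where its brightest was at log2 -0.08.

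Mrps25, a small-subunit protein found only in mitochondria, was the member whose dimmer probes passed where its brightest did not. It was chosen after its values were seen. Its brightest probe read 9.74, 10.22, 9.93 and 9.98 in the Ypel5 siRNA group and 10.08, 10.01, 10.18 and 9.96 in the scrambled group, a change of log2 -0.09 (SE 0.10) with overlapping groups. Its second probe read 8.92, 8.83, 8.82 and 8.83 in the Ypel5 siRNA group and 9.15, 9.36, 9.15 and 9.35 in the scrambled group. Its dimmest probe read 8.57, 8.55, 8.40 and 8.63 in the Ypel5 siRNA group and 8.91, 8.95, 8.85 and 8.96 in the scrambled group. For both dimmer probes every Ypel5 siRNA array lay below every scrambled array, with falls by 0.40 and 0.38 on the log2 scale. Adjusted over the 11364 detected probes, of which 3.7% passed, the limma adjusted p was 0.0200 and 0.0182. With the mean of its probes Mrps25 was at log2 -0.29 (adjusted p = 0.0167, with 4.66% of genes called), and with the brightest probe its adjusted p was 0.676. Among leave-one-out fits, the second probe passed in 4 of 8 and the dimmest in 6 of 8. The second probe was lost without Ypel5 siRNA replicate 2, 3 or 4 or scrambled replicate 2, and the dimmest without replicate 2 of either group (adjusted p of up to 0.0623). Both were also lost with either replicate block, a common median per array, no detection filter or without both arrays numbered 1. Over 21 alternatives the second passed in 12 and the dimmest in 14, with adjusted p of up to 0.134 and 0.164. Before normalization the groups of these dimmer probes overlapped, at 592 to 786 in the Ypel5 siRNA group and 631 to 781 in the scrambled group for the second.

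**Figure D4:**
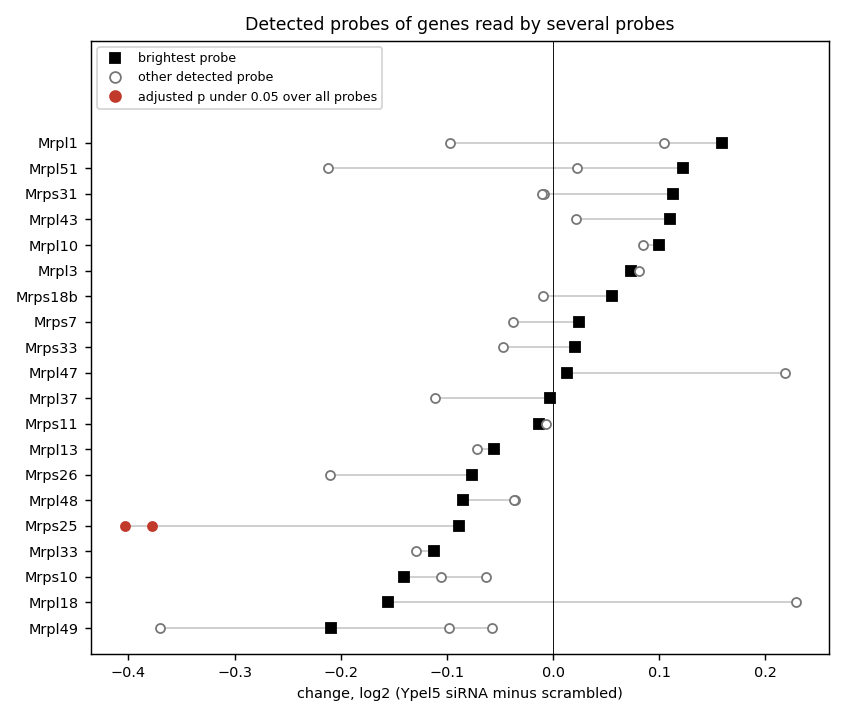
Change of every detected probe (x axis, log2 of Ypel5 siRNA minus scrambled) for the 20 members read by several probes; squares are the brightest probe of each gene and circles the others. The 2 red circles, both of Mrps25 at log2 -0.40 and -0.38, are the probes with an adjusted p under 0.05 over all detected probes.

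The members not tested were Mrpl19, Mrpl21, Mrpl32 and Mrps14. Each was read by 1 probe, detected on 0 of 4 Ypel5 siRNA and 0 of 4 scrambled arrays. Neither group was thus told apart from background, and no fold is given. RefSeq lists pseudogenes named after 3 members, Mrpl23, Mrpl27 and Mrpl48, which their probes might also read.

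Of 95 other listed genes of mitochondrial translation and its regulators 72 were tested. Of all genes tested 2.88% passed as higher and 1.95% as lower, and of these 72 genes 0 passed as higher and 1 as lower. This was Ppargc1b, a transcriptional coactivator of mitochondrial genes, which fell by 0.31 on the log2 scale, to 8.94 ± 0.049 in the Ypel5 siRNA group, against 9.25 ± 0.11 in the scrambled group (SD, n = 4 each, limma adjusted p = 0.0349). Its call was kept without scrambled replicate 4 and lost without any other single array (adjusted p of up to 0.0876). It was also lost with the replicate block by description (adjusted p = 0.0753), a common median per array (0.161), no detection filter (0.116), detection on at least 1 array (0.0556) or without both arrays numbered 1 (0.157), and it passed in 12 of 24 alternatives. Of 5 measured regulators of mitochondrial genes it was the single call.

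The counts in the lists below can be read against the 4.83% of all genes tested that passed. At that share, lists this small cannot be told apart from all genes by a count of 0. Of 7 ribosomal subunits that carry other names, 0 passed, with Aurkaip1 at log2 -0.12 (adjusted p = 0.174) and Gadd45gip1 at log2 -0.27 (adjusted p = 0.254). Of 11 translation factors 0 passed, and the elongation factor gene Tufm was at log2 0.13 and Gfm1 at log2 -0.12 (adjusted p = 0.251 and 0.273). Of 18 assembly and rRNA-modifying genes 0 passed, with the helicase gene Ddx28 at log2 -0.18 (adjusted p = 0.0549) and Mterf3, named Mterfd1 in the file, at log2 0.17 (adjusted p = 0.123). The 15 genes of mitochondrial aminoacyl-tRNA synthesis had a median of log2 0.073 with 0 called. Sars2, which attaches serine to mitochondrial tRNA, was at log2 -0.24 (adjusted p = 0.244). Of 16 genes for mitochondrial DNA expression 0 passed, with the polymerase subunit gene Polg2 at log2 -0.29 (adjusted p = 0.147). Gadd45gip1 was dim, with log2 means of 5.88 in the Ypel5 siRNA group and 6.14 in the scrambled group. Without background correction Gadd45gip1 was at log2 -0.076, Sars2 at log2 -0.13 and Polg2 at log2 -0.14.

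The related gene families gave these values beside the members' median of log2 -0.013. Among all genes tested 49.7% lay below 0 and 4.83% were called, 2.88% higher and 1.95% lower. Respiratory chain and ATP synthase genes, 68 tested, had a median of log2 -0.065 with 54 below 0 (79.4%) and 0 called. Cytosolic ribosomal protein genes, 56 tested, had a median of log2 -0.017 with 36 below 0 (64.3%) and 1 lower call, Rpl27a (log2 -0.29, limma adjusted p = 0.0406). The differences between these families and the members were not tested.

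**Figure D5:**
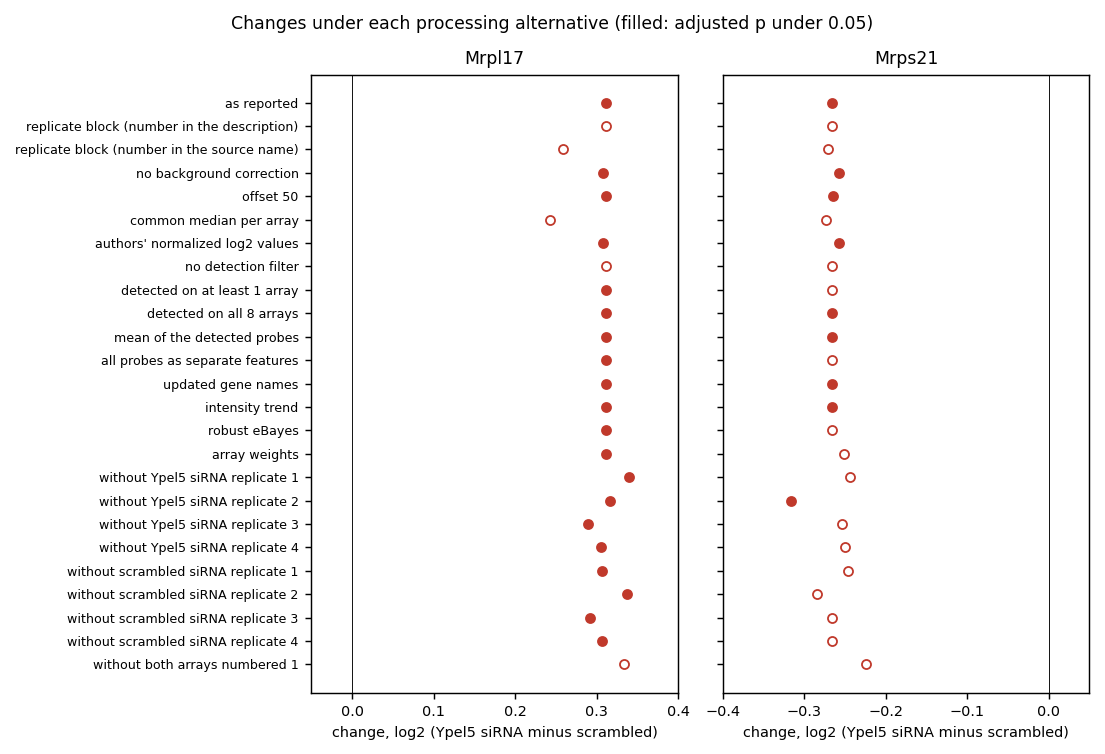
Change of Mrpl17 (left) and Mrps21 (right) on the x axis (log2 of Ypel5 siRNA minus scrambled) under the reported processing and each of 24 alternatives (rows); filled points have an adjusted p under 0.05. Mrpl17 stays between log2 0.24 and 0.34 and is filled in 19 alternatives, and Mrps21 stays between log2 -0.32 and -0.22 and is filled in 8. The alternatives are not independent of each other. No background correction and the authors' log2 values gave the same number of calls and the same called members.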

How the data were processed

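Gene expression was measured on 8 Illumina bead arrays, 4 for the Ypel5 siRNA and 4 for scrambled siRNA, grouped by source name. Per the file headers, the deposited table lists, by probe and array, the linear bead intensity and its detection p-value. A second deposited table holds log2 intensities normalized by the authors; per the submitters' processing notes the tool was RMA, with no version given in the sources used here.

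The neqc function of limma (3.58.1, R 4.3.3, offset 16) gave background-corrected, quantile-normalized log2 values. A probe was kept (11364 were) if its detection p was below 0.05 on 4 or more arrays, and 1 probe a gene, that with the highest mean intensity, gave 8257 gene names, used as in the file. Lists were matched through RefSeq names (GRCm38.p6). Groups were compared with limma (lmFit, eBayes, two-sided), with Benjamini-Hochberg adjustment over all genes and no replicate block. The fit was tested on simulated data. The number of arrays limits the precision. Medians over members carry no test. Alternatives changed the background correction, normalization, detection filter, probe choice, variance model, replicate block and arrays included.

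Members named are those past the threshold, the 8 Mrpl and 8 Mrps genes with the smallest p, the Mrps18 genes, Mrps30, those with probes of opposite sign and those not detected; of other lists, the calls and up to 3 with the smallest p. Members and lists were chosen with earlier results of these data known. Protein sequences were not used here.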

Additional observations from a re-analysis of the deposited data

Results flagged for a closer look

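In 98 groups of 4 values checked, 5 had 1 array set apart from the other 3 by more than Dixon's 95% critical share of the range, and chance gives about 1 in 20. For Mrps21, Ypel5 siRNA replicate 2 read log2 12.27 where the others read 12.04 to 12.07; without it the fall was larger (log2 -0.32, limma adjusted p = 0.0276). For Mrps26, scrambled replicate 1 read log2 12.73 against 12.81 to 12.82 on the others. Outside the members, the tRNA synthetase gene Mars2 read log2 9.44 on scrambled replicate 1 against 9.20 to 9.22. Gfm1 read log2 9.82 on Ypel5 siRNA replicate 4 against 9.68 to 9.70. The regulator gene Gabpa read log2 9.14 on Ypel5 siRNA replicate 1 against 8.66 to 8.70. No cause of these readings was tested.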

How the results depend on the processing

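The number of arrays, 4 a group, and the dimness of some probes limit what could be seen. Of 399 genes called, alternatives gave 111 and 143 (replicate block by the number in the description or the source name), 681 (no background correction, or the authors' log2 values), 228 (common median per array), 145 (no detection filter), 261 (detected on at least 1 array), 760 (intensity trend), 69 (without both arrays numbered 1) and 186 to 274 (leaving out 1 array). Mrpl17, the 1 higher member, was lost (0 higher) with either replicate block (adjusted p = 0.0724 and 0.06), a common median, no detection filter or without both arrays numbered 1, and passed in the other 19 of 24 alternatives. Lower members numbered 0 with either replicate block, a common median, no detection filter, detection on at least 1 array, all probes as features, robust eBayes, array weights or without both arrays numbered 1, 2 when detected on all 8 arrays (Mrpl49 and Mrps21) or with the mean of probes (Mrps21 and Mrps25), 5 without background correction or with the authors' values, where 8.25% of genes passed (Mrps21, Mrps12, Mrpl4, Mrpl11 and Mrpl49), 7 with an intensity trend, where 9.2% passed, and 0 to 1 leaving out 1 array.

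Leaving out 1 array, the median change ranged from log2 -0.029 to 0.0037 for Mrpl, from -0.037 to 0.0099 for Mrps (-0.032 without both arrays numbered 1), and from -0.019 to 0.034 for their difference (0.017 with Mrps30 and Mrps18a in the large subunit). The median change of members with a bacterial counterpart ranged from log2 -0.052 to -0.026 (-0.019 with a common median), and the median change of members found only in mitochondria from 0.0044 to 0.035 (0.046 with a common median, -0.0027 with the mean of probes). At an unadjusted p under 0.05, between 5 and 15 members with a bacterial counterpart and between 1 and 3 without were lower in the alternatives. Signs turned in genes near 0, for Mrps30 (log2 0.025 with the block by source name, 0.015 and 0.012 without Ypel5 siRNA replicate 4 or scrambled replicate 3, leaving-one-out range -0.044 to 0.015), Mrps33 (-0.033 with a common median, -0.013 with the mean of probes, -0.032 without both arrays numbered 1, -0.0017 and -0.0096 without Ypel5 siRNA or scrambled replicate 1, range -0.0096 to 0.040) and Mrps7 (-0.0067 with the mean of probes, -0.014 without both arrays numbered 1, -0.016 without scrambled replicate 1, range -0.016 to 0.058). With the mean of probes they turned for Mrpl18 (0.037), Mrpl51 (-0.022), Dap3 (-0.0048) and Gabpa (0.0029). Same-numbered arrays of the groups had residual correlations from -0.00184 to 0.182, and 1 of 4 correlated best with its own number. These correlations did not show pairing by number, but they do not exclude that same-numbered arrays share something else. The arrays numbered 1 of both groups had far fewer distinct detection p-values than any other array. Whether this bears on the calls lost without these arrays was not tested. The causes of these differences were not tested. The class medians, Mrps25, Mrpl33 and the genes of other lists were followed after the data had been seen.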
